A study of Chlamydomonas reinhardtii with 9 samples.

Results

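Rubisco fixes CO2 in the chloroplast stroma and is built from a large subunit encoded in the plastid genome and a small subunit encoded in the nucleus. In Chlamydomonas the nuclear small subunit genes sit side by side and encode nearly identical proteins. Phosphoribulokinase makes the ribulose bisphosphate that Rubisco consumes, and both are enzymes of the Calvin-Benson cycle. Neither is shared with glycolysis or the pentose phosphate pathway, where most of the other enzymes of the cycle have relatives or shared steps. Phosphoribulokinase is switched off in the dark in a complex with glyceraldehyde-3-phosphate dehydrogenase and the small protein CP12, and switched on through thioredoxins. None of these proteins carries iron, although the electrons that drive the cycle pass through the iron proteins of the thylakoid.

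The transcripts described here are those of RBCS1 (Cre02.g120100) and RBCS2, listed as RBCS2A (Cre02.g120150), which encode the small subunit, and of PRK1 (Cre12.g554800), which encodes phosphoribulokinase. They were chosen by gene name, as every entry named PRK1 or RBCS followed by a digit, which gave 3 of 17301 transcripts, and all 3 passed the filter on low values. The alga was Chlamydomonas reinhardtii, strain CC-4532 (2137), kept in continuous light on Tris-acetate-phosphate (TAP) medium. Its cells were spun down, rinsed with TAP lacking Fe-EDTA and moved to new TAP of the same kind. RNA was sequenced right after the wash (0 h), early (0.5, 1, 2 and 4 h), in the middle (8 and 12 h) and late (24 and 48 h). Each of the 9 times had 2 columns of values, called biological duplicates in the design of the series, and every group received the same wash and the same iron-free medium. No culture supplied with iron was used here, so loss of iron, transfer to fresh medium and age of the culture cannot be told apart. The acetate in TAP is a carbon source besides CO2, and its level over time was not examined here. In RNA from whole cultures, fewer transcripts per cell and fewer cells that carry the transcript cannot be told apart.

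Levels are RPKM, read counts scaled by transcript length and library size. The reads behind each value were recovered from the steps between values, which gave libraries of 13.2 to 33.4 M reads and 4188 to 152636 reads per library for the 3 genes. The recovered transcript lengths were 766 bases for RBCS1, 2055 bases for PRK1 and 230 bases for RBCS2A. The RBCS2A model was thus short. Of 16534 transcripts with a recovered length, 1.67% were as short or shorter, and the deposited description of the gene mentions a gap in the assembly nearby and a near-identical copy, RBCS2B, which was not analysed here. The RBCS2A values may therefore count reads on part of the gene. Its level relative to other genes is uncertain for that reason, while changes over time within it do not depend on the length. How reads that match both small subunit genes were divided is not given in the sources used here, so the split between them is uncertain.

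The 3 transcripts took different courses. PRK1 rose 2.56-fold by 8 h and fell 5.34-fold below its starting level by 48 h. RBCS1 was higher by less than 2-fold from 1 to 4 h and fell 4.66-fold by 48 h. RBCS2A stayed within 1.33-fold of its starting level at each time in the fit over both duplicates. In duplicate 1 alone RBCS2A was at 0.713 of its start at 24 h and at 1.39 times its start at 48 h. It had the highest RPKM in the table in both duplicates at 2 h and at 48 h, on its short model. A gene was called when limma-trend on log2(RPKM + 1) gave a Benjamini-Hochberg adjusted p below 0.05 over all 13077 genes tested and a change of at least 2-fold. The fit held a term for the duplicate number. The p-values therefore measure the spread between duplicate columns that remains once their standing gap is taken out, pooled over all times.

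**Figure D1:**
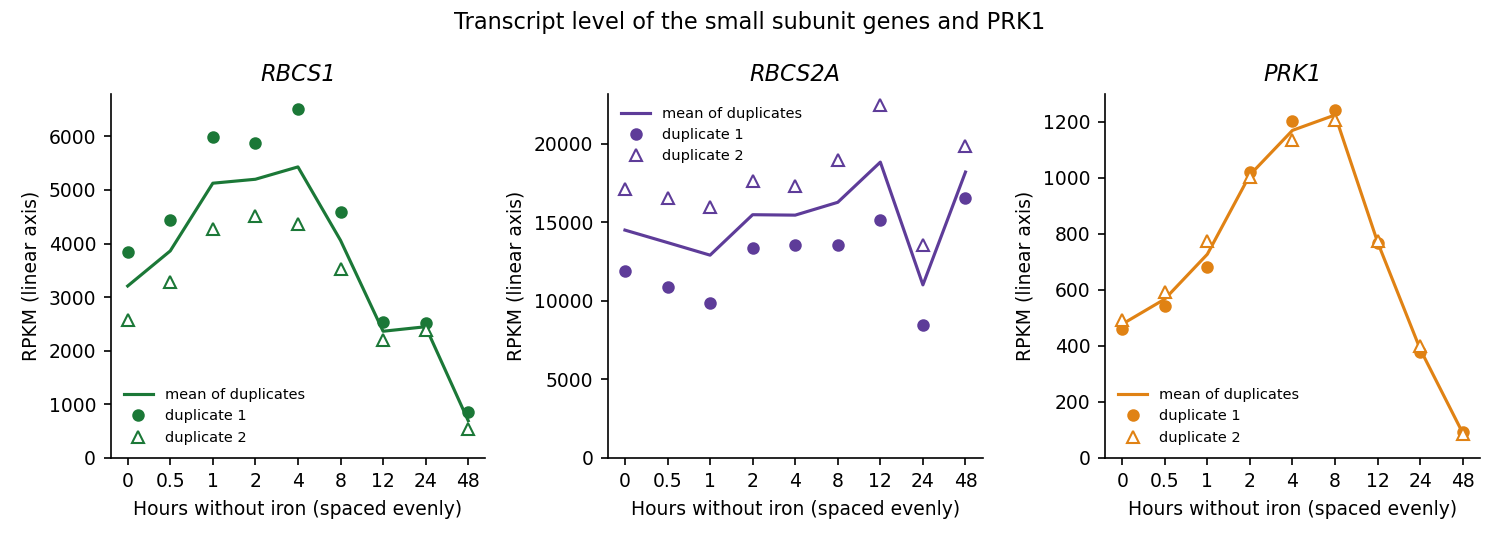
Level of RBCS1, RBCS2A and PRK1 in RPKM (linear axes starting at 0) at each time without iron, with filled circles for duplicate 1, open triangles for duplicate 2 and a line through their mean. RBCS1 and PRK1 have their highest means at 4 and 8 h and end at 693 and 88.7 RPKM on average, while RBCS2A ends at 18212 RPKM, and the duplicates of RBCS1 and RBCS2A lie apart in opposite directions.

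PRK1 was measured at 462 and 493 RPKM in duplicates 1 and 2 at 0 h. The next samplings gave 543 and 591 RPKM (0.5 h), 681 and 773 RPKM (1 h) and 1019 and 1001 RPKM (2 h). It peaked with 1204 and 1134 RPKM at 4 h and 1243 and 1205 RPKM at 8 h. Every time through 8 h had both its values above both values of the time before. The later values were 765 and 775 RPKM at 12 h, 377 and 399 RPKM at 24 h, then 93.2 and 84.2 RPKM at 48 h, each pair below the one before.

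The change of PRK1 from 0 h was 1.08 on the log2 scale at 2 h (SE 0.08, n = 2, limma-trend adjusted p = 3.5e-07). It was 1.29 at 4 h and 1.36 at 8 h (adjusted p = 8.4e-08 and 3.4e-08 by limma-trend), the latter a 2.56-fold rise. At 12 h it was 0.69 higher than at 0 h, under 2-fold and so not called, and at 24 h the change was -0.30. The fall at 48 h was 5.34-fold, or -2.42 in log2 (SE 0.08, n = 2, adjusted p = 7.7e-11 by limma-trend). PRK1 was the member called as higher at 2, 4 and 8 h, 1 of 3 genes each time, where 9.44%, 5.99% and 7.36% of all genes tested were called higher. No member was called at the other times before 48 h, when 5.64% (0.5 h), 8.38% (1 h), 10.1% (12 h) and 14.8% (24 h) of genes tested were higher and 3.48%, 4.95%, 18% and 6.39% lower. No member was called lower at 2, 4 or 8 h, where 7.18%, 11.8% and 13.9% of genes tested were.

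Ordered by mean level, the times for PRK1 ran from 8 h through 4, 2, 12, 1 and 0.5 h to 0 h, then 24 and 48 h. Neighbours in this order had no overlap of their duplicates, except 12 h and 1 h, whose means were 770.0 ± 6.64 and 727 ± 64.6 RPKM (SD, n = 2). Its rank among all transcripts went from 249 and 228 at 0 h to 148 and 150 at 8 h and to 747 and 807 at 48 h in duplicates 1 and 2.

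RBCS1 had 3835 and 2580.4 RPKM in duplicates 1 and 2 at 0 h. It had 4435 and 3291 RPKM at 0.5 h, and 5986 and 4267 RPKM at 1 h. The next values were 5882 and 4519 RPKM at 2 h and 6503 and 4359 RPKM at 4 h. At each of these times duplicate 1 was the higher, and the highest value of duplicate 2 was close to that of duplicate 1 at 0.5 h, so the duplicates of different times overlapped. The level was 4591 and 3529 RPKM at 8 h and 2534 and 2193 RPKM at 12 h. It stood at 2512 and 2383 RPKM at 24 h, and at 853 and 533 RPKM at 48 h. The values at 48 h were below those of every other time. Ordered by mean level and compared within each duplicate, neighbouring times kept their order in both. The exceptions were 4 and 2 h, 2 and 1 h, and 24 and 12 h.

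At 1, 2 and 4 h the log2 change of RBCS1 from its start was 0.68, 0.71 and 0.76 (SE 0.12, n = 2, limma-trend adjusted p = 2.4e-04, 1.5e-04 and 9.0e-05). These changes of up to 1.69-fold did not meet the 2-fold rule. Without the duplicate number in the fit their adjusted p were 0.0684, 0.0552 and 0.0426, because the standing gap between duplicates then counted as error. At 12 and 24 h its log2 change from 0 h was -0.42 and -0.36, again under 2-fold. At 48 h it had fallen 4.66-fold, or -2.22 in log2 (SE 0.12, n = 2, adjusted p = 2.2e-09 by limma-trend). With PRK1 this made 2 of 3 genes called lower at 48 h, where 15.8% of all genes tested were called lower and 18.4% higher.

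Most of the loss of RBCS1 fell into the last interval. From 24 to 48 h it changed by -1.86 (SE 0.12, limma-trend adjusted p = 2.2e-08), and PRK1 by -2.12 in the same interval (SE 0.08, adjusted p = 4.8e-10 by limma-trend), so that 2 of 3 genes were called lower where 16.1% of genes tested were. No member met the rule in an earlier interval, for which the share of genes tested that did so was 0.52% (0.5 to 1 h), 0.933% (1 to 2 h), 1.35% (2 to 4 h), 6.3% (4 to 8 h), 3.53% (8 to 12 h) and 16.8% (12 to 24 h). From 8 to 12 h both were lower by less than 2-fold, by -0.77 for RBCS1 and -0.67 for PRK1. Between 12 and 24 h their steps differed. PRK1 changed by -0.99 and RBCS1 by 0.05, and the sign of the latter depended on the scaling and on single columns, since it was -0.44 after median centring of the columns, and -0.07 and -0.14 without duplicate 1 of 12 h and duplicate 2 of 24 h. The PRK1 step met the rule after centring (-1.48) and without duplicate 2 of 24 h (-1.02). The median of all genes tested moved by 0.40 in that interval.

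RBCS2A had 11894 and 17132 RPKM in duplicates 1 and 2 at 0 h. It stood at 10882 and 16554 RPKM at 0.5 h, and 9849 and 15982 RPKM at 1 h. It then had 13374 and 17612 RPKM at 2 h, 13589 and 17343 RPKM at 4 h and 13587 and 18981 RPKM at 8 h. In contrast to RBCS1, duplicate 2 was the higher at all 9 times. The highest mean came at 12 h, with 15173 and 22516 RPKM, and the lowest at 24 h, with 8484 and 13561 RPKM. At 48 h the duplicates had 16583 and 19840.1 RPKM. The ranges of all neighbouring times in the order of mean levels overlapped, as the standing gap between duplicates widens each range. Compared within each duplicate, neighbours in that order kept it in both, except 12 and 48 h, and 2 and 4 h.

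None of the changes of RBCS2A from 0 h reached 2-fold. Its log2 changes were 0.37 (12 h), -0.41 (24 h) and 0.35 (48 h) (SE 0.09, n = 2, limma-trend adjusted p = 0.00312, 0.00172 and 0.00466). The 95% interval of the change at 48 h ran from 0.14 to 0.55 on the log2 scale, which leaves out a fall of the kind seen in RBCS1. Without the duplicate number in the fit the adjusted p at 12, 24 and 48 h were 0.349, 0.309 and 0.369. The steps into and out of 24 h share the same 24 h columns, so they are not independent evidence of a dip. From 12 to 24 h RBCS2A changed by -0.79 and from 24 to 48 h by 0.76 (adjusted p = 1.1e-05 for each by limma-trend), both under 2-fold. Neither step had an adjusted p below 0.05 in the limma-trend fit without the duplicate number. After centring, the step from 12 to 24 h was -1.28 and met the rule, and the change from 0 to 24 h was -0.74, still under 2-fold. Its share of all RPKM was 1.41% and 1.99% in duplicates 1 and 2 when starvation began. The corresponding shares were 1.05% and 1.69% for the 24 h columns and 1.99% and 2.38% for those of 48 h.

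**Figure D2:**
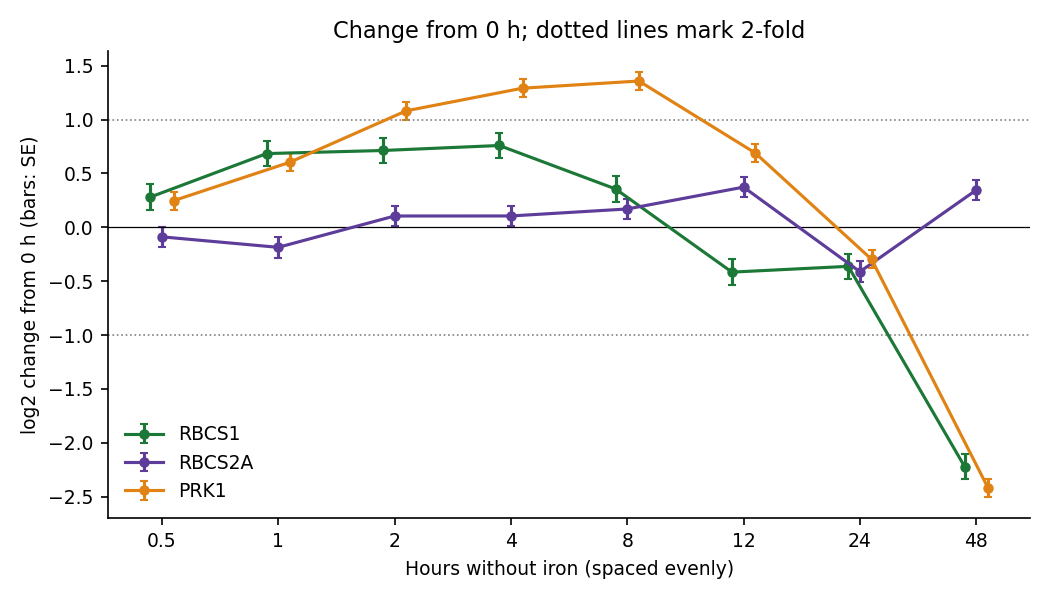
Log2 change from 0 h of RBCS1, RBCS2A and PRK1 at each later time, with bars for the standard error of the limma-trend fit and dotted lines at a 2-fold change. PRK1 crosses the upper line from 2 to 8 h, PRK1 and RBCS1 end at -2.42 and -2.22, and RBCS2A stays between -0.41 and 0.37.

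The duplicates carried a lasting difference in the small subunit genes. The log2 ratio of duplicate 2 to duplicate 1, fitted across the 9 times, was -0.42 in RBCS1 (SE 0.06, limma-trend adjusted p = 6.8e-05) and 0.51 in RBCS2A (SE 0.04, adjusted p = 5.0e-06 by limma-trend). The gap had the same sign at 9 of 9 times in each gene, from -0.68 to -0.08 in RBCS1 and from 0.26 to 0.70 in RBCS2A. In PRK1 it was 0.02 and its sign varied, with duplicate 2 higher at 5 times and lower at 4. A difference of any size between the duplicates at an adjusted p below 0.05 was found in 47.7% of all genes tested, so a gap as such was common, and what set the duplicates apart was not tested.

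A ratio of 2 genes within a library does not depend on the scaling between libraries. RBCS2A exceeded RBCS1 3.10-fold in duplicate 1 and 6.64-fold in duplicate 2 at 0 h, on the per-length scale with its short model. Later values were 1.65 and 3.75 (1 h), 2.09 and 3.98 (4 h), then 2.96 and 5.38 (8 h). It reached 5.99 and 10.3 at 12 h, returned to 3.38 and 5.69 at 24 h, and stood at 19.4 and 37.2 at 48 h. Relative to the start, the ratio had thus grown 6.27-fold and 5.61-fold in the 2 duplicates at 48 h, and it had shrunk to 0.53 and 0.56 of it at 1 h. Duplicate 2 had the higher ratio at each of the 9 times.

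The ratio of PRK1 to RBCS1 was 0.120 and 0.191 at 0 h in duplicates 1 and 2. It was 1.02 and 0.94 times this start at 0.5 h and 0.95 times in both duplicates at 1 h, and lay above it in both from 2 to 12 h. It reached 0.302 and 0.353 at 12 h, and was back at 0.109 and 0.158 at 48 h. Over the whole course PRK1 and RBCS1 therefore ended in nearly the proportion they had begun with, at 0.91 and 0.83 of the starting ratio in duplicates 1 and 2. The ratio of PRK1 to RBCS2A was 1.29 and 1.24 times its starting value at 0.5 h, 2.28 and 2.27 times at 4 h, and 0.145 and 0.148 of it at 48 h.

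With 2 columns against 2, an exact two-sided permutation test cannot give a p below 0.333, and the change of the RBCS2A to RBCS1 ratio from 0 to 48 h, 2.57 on the log2 scale, had that p. That test also ignores the pairing of the duplicates. Each ratio was therefore also set against log2(hours + 0.5) over the 9 times, which asks about a trend and not about the change at 48 h. The permutation treats successive times of a course as exchangeable, which they may not be, so its p-values are a rough guide. The RBCS2A to RBCS1 ratio gave a Pearson r of 0.66 (n = 9, exact permutation p = 0.036, 0.108 adjusted over the 3 ratios) and a Spearman rho of 0.50 (exact permutation p = 0.178, adjusted 0.533), and r was 0.66 without 0 and 48 h (exact permutation p = 0.0964, n = 7). The PRK1 to RBCS1 ratio gave r = 0.20 and rho = 0.17 (exact permutation p = 0.587 and 0.678, adjusted 0.587 and 0.678, n = 9), and r = 0.51 without these times. For PRK1 to RBCS2A they were -0.50 and -0.20 (exact permutation p = 0.175 and 0.613, adjusted 0.263 and 0.678, n = 9), and r = -0.25 without these times. No trend of a ratio with time passed the correction over all 9 times. Without 0 h the RBCS2A to RBCS1 ratio did (r = 0.78, exact permutation, adjusted p = 0.0237), and without 48 h the sign for PRK1 to RBCS2A turned (r = 0.13).

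**Figure D3:**
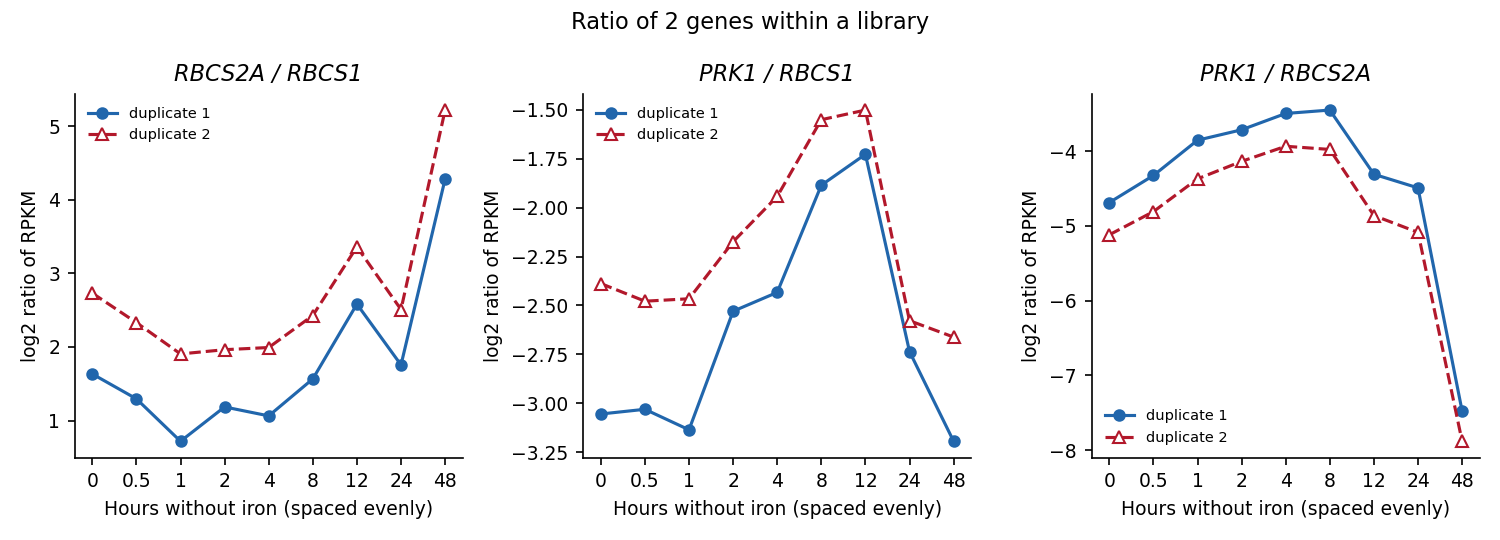
Log2 ratio of RPKM for RBCS2A to RBCS1, PRK1 to RBCS1 and PRK1 to RBCS2A within each library at each time, with filled circles and a solid line for duplicate 1 and open triangles and a dashed line for duplicate 2. Duplicate 2 lies above duplicate 1 in the first and second panels and below it in the third, the first ratio ends at 4.28 and 5.22, and the third drops to -7.48 and -7.88 at 48 h.

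Genes whose course was most like that of each member were ranked by Pearson correlation of log2(RPKM + 1) over the 18 columns among 2995 named genes, as a description. The columns are one time course, so all genes in it share their libraries. The gap between duplicates was not taken out, so it enters each r beside the course over time. PRK1 ran closest to PGK1 (Cre22.g763250), phosphoglycerate kinase, the enzyme of the step that follows CO2 fixation, with r = 0.99. Next came LHCB5 (Cre16.g673650), a minor antenna protein of photosystem II, with r = 0.99, and Cre06.g269050, described as a pyridine nucleotide binding protein, with r = 0.98. TEF2 (Cre12.g497300), described as a rhodanese-like calcium sensing receptor, and TRXf2 (Cre05.g243050), a thioredoxin of the f type that activates cycle enzymes in plants, each had r = 0.98. These 5 genes changed by between -1.77 and -3.34 at 48 h.

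RBCS1 ran closest to TRXm (Cre14.g621550), a plastid thioredoxin, with r = 0.98. Then followed the ferredoxin gene PETF (Cre14.g626700) and CGL38 (Cre12.g551950), a gene conserved in green organisms, each with r = 0.96. FNR1 (Cre11.g476750), the reductase that loads NADP with electrons from ferredoxin, and SQD1 (Cre16.g656400), which makes the headgroup of a plastid sulfolipid, each had r = 0.96. RBCS2A had no such close companions. The gap between its duplicates was 0.51 in log2, while its changes from 0 h lay between -0.41 and 0.37. Its correlations thus reflect that gap as well as its course. Its highest values were 0.85 for MRPS29, also named CPL4 (Cre03.g176700) and described as a mitochondrial ribosomal protein, and 0.80 for IMP2 (Cre01.g027100), a peptidase of the mitochondrial inner membrane. DPD1 (Cre01.g050100), a diaminopimelate decarboxylase, had 0.76, FBA1 (Cre01.g006950), an aldolase, had 0.74, and RPS28 (Cre12.g510450), of the cytosolic ribosome, had 0.73. Among the members themselves r was 0.89 for RBCS1 with PRK1, -0.40 for RBCS1 with RBCS2A and -0.05 for RBCS2A with PRK1.

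The Calvin-Benson cycle list held 17 genes with the members. At 8 h the call went to 6 as higher and 1 as lower (0 without duplicate 1 of 0 h). At 12 h it went to 2 as higher and 3 as lower, at 24 h to 1 and 2, and at 48 h to 3 and 10, and the remaining genes of the list did not meet the rule. In the whole table of genes tested, the shares called higher in this order of times were 7.36%, 10.1%, 14.8% and 18.4%, and those called lower were 13.9%, 18%, 6.39% and 15.8%. The list's calls for 12 h were near that background. The median change of the list was 0.84 at 4 h and -1.27 at 48 h, beside -0.04 and 0.14 for all genes tested. Apart from the members, 8 of 14 genes were lower and 3 higher at 48 h.

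Genes for enzymes on the way from the product of Rubisco to triose phosphate were called lower at 48 h, but not all of them fell in the last interval. PGK1 had 303 and 325 RPKM at 0 h in duplicates 1 and 2, 871 and 823 RPKM at 8 h and 74.6 and 65.4 RPKM at 48 h, with log2 changes of 1.43 and then -2.15. GAP3 (Cre01.g010900), the plastid glyceraldehyde-3-phosphate dehydrogenase that binds PRK, changed by 1.37 at 8 h. It was already called lower at 24 h, at -1.19, and stood at -1.27 at 48 h. TPIC (Cre01.g029300), triose phosphate isomerase, changed by -1.37 at 48 h. At 24 h TPIC and PGK1 had stood at 0.53 and 0.05.

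Some genes of the regeneration branch, which rebuilds the substrate of PRK, were called lower at 48 h and others were not. TRK1 (Cre02.g080200), transketolase, and SEBP1 (Cre03.g185550), sedoheptulose bisphosphatase, changed by -1.83 and -1.39 at 48 h (SE 0.09 and 0.08, limma-trend adjusted p = 1.5e-09 and 2.8e-09). SEBP1 had been 1.04 higher at 8 h and was already called lower at 24 h (-1.47), when TRK1 stood at -0.18. FBP1 (Cre12.g510650), fructose bisphosphatase, changed by -1.06 at 48 h. The isomerase gene RPI1 (Cre03.g187450) and the epimerase gene RPE1 (Cre12.g511900), which make ribulose phosphate, were already called lower at 12 h, with -1.29 and -1.17, when PRK1 was still above its start. At 48 h RPI1 stood at -1.48 and RPE1 at -0.69, which was not called. FBA2 (Cre02.g093450), an aldolase gene of low level with 9.54 and 13.1 RPKM at 0 h, changed by -1.20 at 12 h and -1.46 at 48 h. Chosen after their values were seen, FBA3 (Cre05.g234550) and RPE2 (Cre02.g116450) were not called at 48 h. FBA3, an aldolase gene with 1861 and 2217 RPKM at 0 h, rose by 1.08 at 8 h and was at -0.08 at 48 h (SE 0.10). RPE2, an epimerase gene with 23.8 and 22.2 RPKM at 0 h, was at -0.95 at 48 h (SE 0.11), just under 2-fold.

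Others on the list went up. TAL1 (Cre01.g032650), transaldolase, an enzyme of the pentose phosphate pathway more than of the cycle, rose from 68.9 and 36.2 RPKM to 760.3 and 679.5 RPKM at 12 h (3.82 in log2, SE 0.20, adjusted p = 3.5e-09 by limma-trend) and was still 2.50 higher at 48 h. FBA1 was 1.23 higher than at 0 h at 12 h and 1.81 higher at 48 h, both called, but at 24 h it stood at -0.96, with 109 and 138 RPKM against 214 and 269 RPKM at 0 h. RPI2 (Cre07.g314600), described as related to ribose phosphate isomerase, rose by 1.53 at 48 h from 4.24 and 3.49 RPKM at 0 h.

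**Figure D4:**
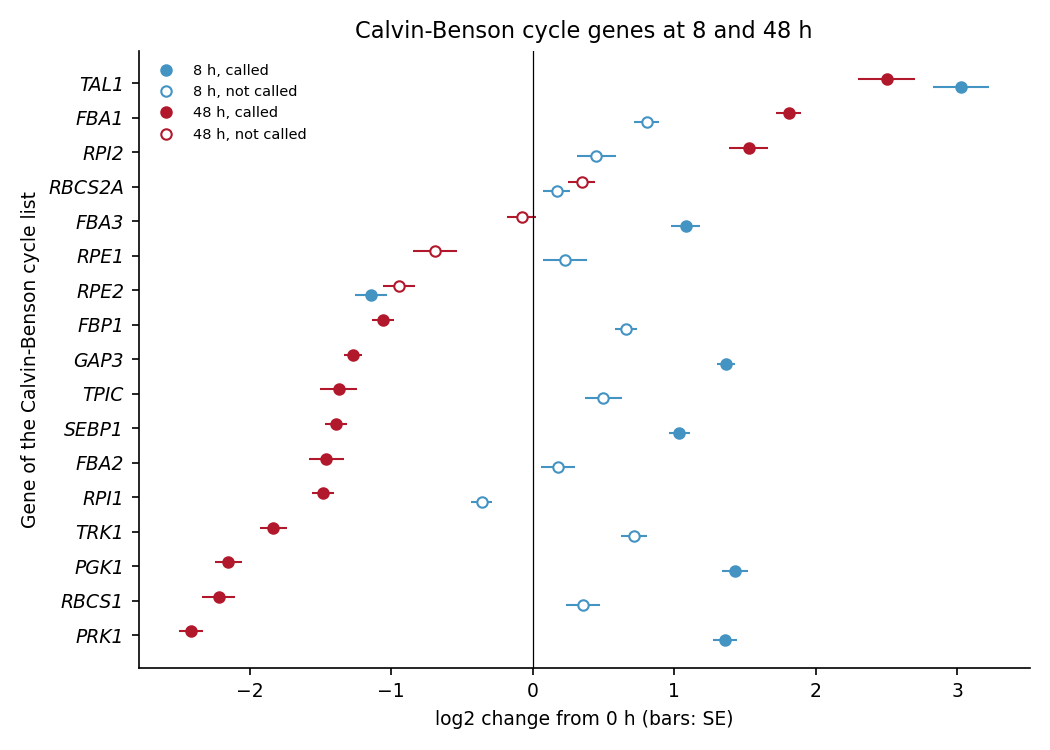
Log2 change from 0 h of the 17 genes of the Calvin-Benson cycle list at 8 h (blue) and 48 h (red), ordered by the change at 48 h, with bars for the standard error, filled points for called changes and open points for the rest. PRK1 and RBCS1 lie lowest at 48 h, at -2.42 and -2.22, while RBCS2A lies at 0.35, below the 3 genes called higher.

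A list of 11 genes for assembly, activation, modification and regulation of Rubisco and PRK had 1 gene called higher and 3 called lower at 12 h, 6 called lower and 0 higher at 48 h, and a median of -1.03 at 48 h beside 0.14 for all genes tested. Without duplicate 1 of 0 h, or without duplicate 1 of 12 h, the list had 5 genes called lower at 12 h, and it had 1 called higher at 48 h when duplicate 1 was left out at 0 h or at 48 h. Among all genes tested the share called lower was 18% for 12 h and 15.8% for 48 h, and the share called higher was 10.1% and 18.4%. TRXm and TRXf2 changed by -2.38 and -2.11 at 48 h. LCI5 (Cre10.g436550), also known as EPYC1, the linker that packs Rubisco into the pyrenoid, had 3025 and 2682 RPKM at 0 h and 895 and 676 RPKM at 48 h, -1.87 in log2 (SE 0.10, adjusted p = 2.5e-09 by limma-trend). RMT1 (Cre16.g661350), described as a methyltransferase of the Rubisco large subunit, fell from 15.4 and 22.3 RPKM to 5.90 and 5.94 RPKM. Among the genes named after their values were seen, CP12 (Cre08.g380250), the partner of PRK in its inactive complex, had 657 and 757 RPKM at 0 h, 1195 and 1014 RPKM at 4 h and 428 and 414 RPKM at 48 h. Its changes of 0.64 and -0.74 were under 2-fold. RCA1 (Cre04.g229300), Rubisco activase, fell by 1.21 on the log2 scale at 24 h and stood at -0.29 at 48 h, not called, and TRXf1 (Cre23.g766300), the other thioredoxin of the f type, rose by 2.01 at 12 h and was 0.45 higher at 48 h, not called.

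Photorespiration recycles the glycolate formed when Rubisco takes oxygen in place of CO2. Among 16 genes tested, 0 were called higher and 5 lower at 12 h. At 48 h the calls were 2 higher and 3 lower, or 1 and 5 after centring on the median. Without duplicate 1 of 0 h 6 genes were lower, and without duplicate 2 of 48 h 1 was higher. All genes tested had a share of 18% called lower for 12 h, and for 48 h the shares were 18.4% up and 15.8% down, near those of this list. Its median was -0.67 at 12 h, beside -0.14 for all genes tested. GLYK (Cre12.g542300), glycerate kinase, which returns carbon from this path to the cycle, changed by -1.88 at 12 h and -1.27 at 48 h. GCSH (Cre06.g253350), a glycine cleavage protein, and SHMT2 (Cre06.g293950), serine hydroxymethyltransferase, changed by -1.28 and -1.53 at 48 h. AGT2 (Cre03.g182800), an alanine-glyoxylate transaminase, instead rose by 1.65.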

How the data were processed

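The table deposited by the authors holds RPKM values for 17301 transcripts in 18 columns, and 0 columns of values were left unused. Its header names no unit, and RPKM was read from the values. The submitters' processing notes name Bowtie. Version, build, counter and the treatment of reads with several matches: not given in the sources used here. The 1 sample registered per time has 2 columns. Whole reads were recovered by searching for the length that turns a transcript's values into integers in every library, within 0.05 reads, which succeeded for 16534 transcripts (95.6%). As lengths were accepted on that condition, the share of whole values shows little by itself.

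limma 3.58.1 in R 4.3.3 was fitted with trended variance to log2(RPKM + 1) from the 18 columns, with terms for each time and for the duplicate (the block), for the 13077 genes with at least 1 RPKM at 3 or more times. Fold changes on this scale understate those of low genes. The duplicates are paired by their column numbers. The difference between duplicates correlated across genes at 0.32 to 0.73 over 36 pairs of times. Ratios were tested by exact permutation with Python 3.11.15, numpy 2.4.6, pandas 2.3.3 and scipy 1.17.1; figures used matplotlib 3.10.9. The fit was also run on simulated columns drawn independently, without a gap between duplicates, so that run could not test the block. Alternatives were other pseudocounts, filters and thresholds, median centring, no block, no variance trend, and leaving out each column or, for ratios, each time.

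The members and lists were chosen with earlier results of these data known. Genes named were the members, cycle genes called at 12 or 48 h, the 4 largest called changes at 48 h in each other list, and the 5 named genes most correlated with each member. Symbols were matched regardless of case, and 4 listed symbols (SBP1, GDH1, RBX1, RLS1) were dropped because the table describes them as other genes. That no gene lies between RBCS1 and RBCS2A was read from the RefSeq table of assembly Chlamydomonas_reinhardtii_v5.5. In it 12666 of the 17301 identifiers were matched, and genes were ordered by chromosome and start position.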

Additional observations from a re-analysis of the deposited data

How the results depend on the processing

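The 45 changes of the 3 members (from 0 h and between neighbouring times) were each computed under 13 alternatives, 585 values in all, and 573 kept their direction and their call. All called changes of the members were among these. Pseudocounts and filters hardly move the estimates of genes at such levels, and the stricter threshold reused the same fit. The share kept therefore says little by itself. Median centring of the columns changed the call or the direction of 3 steps. Those from 12 to 24 h became -1.28 for RBCS2A and -1.48 for PRK1, past 2-fold, and -0.44 for RBCS1, which turned its direction. Leaving out single columns turned steps that were near 0. Over these, the RBCS1 step ranged from -0.0092 to 0.0665 between 1 and 2 h, from -0.0414 to 0.13 between 2 and 4 h, and from -0.14 to 0.25 between 12 and 24 h. The RBCS2A step ranged from -0.20 to 0.0101 between 0.5 and 1 h, from -0.0871 to 0.0878 between 2 and 4 h, and from -0.0224 to 0.15 between 4 and 8 h. The PRK1 step from 12 to 24 h ranged from -1.02 to -0.95. The pairing of duplicates changed no call, and without the replicate block the change at 48 h was -2.22 for RBCS1 (limma-trend adjusted p = 1.9e-05) and -2.42 for PRK1 (adjusted p = 1.9e-09). Without 0 h the correlation of the RBCS2A to RBCS1 ratio with time was 0.78 (exact permutation, adjusted p = 0.0237, n = 8), and without 48 h that of PRK1 to RBCS2A was 0.13. The counts of cycle genes called at 12 and 48 h stayed within 1.5 times the reported count under the alternatives run. For the other counts of the 3 lists, 531 alternative values did so and 41 did not. The cause of these shifts was not tested.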
